A study of Mus musculus with 20 samples.

Results

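The genes AF067061, BC080696, Usp17la, Ubtfl1 and Pramel18 were among the strongest increases of mouse embryonic stem (ES) cells lacking Dnmt3a and Dnmt3b, and were chosen by those measured values mostly. They are 5 of the 18194 genes measured on 20 Affymetrix MOE430v2 arrays. All other states of the same cell lines were used to ask where else these genes were expressed and whether the genotype moved them there.

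Cleavage-stage genes are transcribed in a short burst when the genome of the mouse embryo is first switched on, and are then silenced. In ES cell cultures, transcripts of this kind come mainly from a rare population of cells that enters and leaves the state. Dnmt3a and Dnmt3b are the enzymes that place new methyl groups on CpG sites, and several germline and early embryonic genes are known to be held silent by CpG methylation. No embryo was measured here, so the stage in the name of the group is background and not a result of these arrays. Of the 5 genes, Ubtfl1 encodes a high mobility group box protein of the pre-implantation embryo, Usp17la encodes a deubiquitinating enzyme first described as Dub1 in cytokine-stimulated blood cells, and Pramel18 belongs to the PRAME-like family of leucine-rich repeat proteins of germ cells and early embryos. AF067061 lies on chromosome 13 in a cluster with Tcstv3, a known cleavage-stage gene. BC080696 lies on chromosome 5 among Pramel genes and is annotated by RefSeq as a miscellaneous RNA.

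The wild-type (WT) groups came from J1 ES cells of the 129sv/Jae strain and the double-knockout (DKO) groups from Dnmt3a-/- Dnmt3b-/- ES cells of the same origin, with 2 arrays in each of 10 groups. ES cells were undifferentiated and came from 1 transgenic clone per genotype that expressed Gata4GR, in which Gata4 is joined to the steroid-binding part of the human glucocorticoid receptor, from the CAG promoter. Primitive endoderm (PE) came from those ES cells treated for 4 days with 100 nM dexamethasone (Dex), the ligand that activates Gata4GR. Flk1(+) mesoderm was obtained by letting ES cells differentiate on type IV collagen and sorting cells positive for Flk1 and PDGFRα. Dex- and Dex+ cells were this sorted mesoderm after another 4 days of culture, in which Dex at 100 nM was left out or added. In the Flk1(+) groups, replicate 1 came from the parental lines, which have no transgene, and replicate 2 from the transgenic clones. Because each genotype rests on 1 knockout line and its clone, genotype and line cannot be told apart. Arrays of a group are labelled biological replicates. Where they did not come from separate cultures, p-values measure the spread between arrays alone.

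The deleted genes and the cell type markers were checked first. Dnmt3a ranged from 7.46 to 9.44 on the 10 WT arrays and from 6.18 to 6.83 on the 10 DKO arrays, all values being log2 signals after RMA, the normalization the authors applied. Dnmt3b ranged from 6.59 to 13.1 in WT and from 4.97 to 8.97 in DKO. These ranges overlap across states, while within each state both DKO arrays lay below both WT arrays. In Dex+ cells neither of these genes passed the test described below, while both were lower in DKO in the other 4 states. The ES marker Pou5f1 had group means of 12.2 in WT ES and 11.8 in DKO ES cells, and Nanog of 11.2 and 11.5. The endoderm marker Sox17 reached 12.9 in WT PE and 13.0 in DKO PE. Array medians lay between 5.79 and 5.87.

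Promoter windows were available for 3 of the 5 genes and are shown because CpG sites are the substrate of the deleted enzymes. Each window runs from 250 bases before to 50 bases after the annotated start and was taken from RefSeq on build GRCm38.p6. The positions, all on the plus strand, are chr13:120262845-120263144 for AF067061, chr7:104856766-104857065 for Usp17la and chr9:18404168-18404467 for Ubtfl1. The sequences are written 5′ to 3′ with each CpG in capitals.
AF067061: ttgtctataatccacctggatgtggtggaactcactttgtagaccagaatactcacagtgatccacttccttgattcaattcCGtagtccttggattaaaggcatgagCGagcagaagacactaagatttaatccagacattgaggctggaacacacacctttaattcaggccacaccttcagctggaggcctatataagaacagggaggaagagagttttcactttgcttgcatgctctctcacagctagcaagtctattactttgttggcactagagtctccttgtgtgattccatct
Usp17la: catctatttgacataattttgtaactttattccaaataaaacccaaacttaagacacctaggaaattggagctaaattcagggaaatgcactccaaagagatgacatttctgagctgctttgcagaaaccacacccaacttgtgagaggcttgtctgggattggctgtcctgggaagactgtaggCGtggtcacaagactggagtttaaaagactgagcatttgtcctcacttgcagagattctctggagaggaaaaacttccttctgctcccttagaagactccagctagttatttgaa
Ubtfl1: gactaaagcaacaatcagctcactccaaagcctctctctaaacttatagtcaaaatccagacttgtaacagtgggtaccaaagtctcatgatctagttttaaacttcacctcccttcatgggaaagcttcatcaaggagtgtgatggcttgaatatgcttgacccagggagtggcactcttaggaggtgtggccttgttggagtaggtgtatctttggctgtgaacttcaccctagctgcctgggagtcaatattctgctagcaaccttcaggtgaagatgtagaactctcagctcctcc
The windows held few CpG sites. AF067061 had 2, Usp17la 1 and Ubtfl1 0, against a median of 7 over 32851 promoter windows of the same length. Of those windows, 23.3% had as few CpG sites as AF067061, 14.1% as few as Usp17la and 5.43% as few as Ubtfl1. Among the 198 other genes that were higher in DKO than in WT ES cells, 160 had at least 1 window, and the median of their 187 windows was 12 CpG sites. In 16 windows of 13 other cleavage-stage genes the median was 2, with a range from 0 to 5. The exact TATA box letters TATAAA, searched on both strands, were in 0 of the 3 windows and in 13.6% of all windows. Variants of these letters were not searched. The AF067061 window holds the near match TATATAAG, so the count does not show that a TATA box is absent. The GATA letters AGATAA were in 0 of the 3 and in 11.2% of all.

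Each of the 5 genes had 1 probe set with its symbol alone. These were 1425220_x_at for AF067061, 1445849_at for BC080696, 1420773_at for Usp17la, 1439670_at for Ubtfl1 and 1441011_at for Pramel18. The suffix of the AF067061 probe set marks probes that can bind other transcripts, and it was designed on the accession of a related sequence, so its signal can include other copies of the cluster.

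In ES cells the 5 genes were 9.36 to 29.4 times higher in DKO than in WT. These differences chose the genes and are given without a test. AF067061 was at 6.85 and 6.34 in WT ES replicates 1 and 2 and at 11.54 and 10.20 in DKO ES replicates 1 and 2. BC080696 was at 4.48 and 3.99 in WT ES cells and reached 10.18 and 8.05 in DKO. Usp17la was at 6.56 and 4.99 in WT and at 10.48 and 9.27 in DKO. In all 3 genes the lower DKO array stood well clear of the higher WT array. Ubtfl1 was at 3.74 and 3.65 in WT and at 8.25 and 6.58 in DKO. Pramel18 was at 3.99 and 3.66 in WT and at 7.74 and 6.37 in DKO. In WT ES cells Ubtfl1 and Pramel18 lay near the bottom of the array, above 7.43% to 9.13% and 7.59% to 14.6% of all probe sets on their own arrays.

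The log2 differences of DKO minus WT in ES cells were 4.88 ± 0.45 for BC080696, 4.27 ± 0.31 for AF067061, 4.10 ± 0.42 for Usp17la, 3.72 ± 0.34 for Ubtfl1 and 3.23 ± 0.29 for Pramel18 (± SE of the fit, n = 2 arrays per group). Over all 18194 genes they ranked 1, 5, 6, 7 and 12. The genes between them in that order were Nxf3, Gm364, 1700013H16Rik, Arg2, Gbp3, Rhox5 and Gm7969, so the group is not simply the top of the ranking. Across all genes, 1.12% were called higher in DKO ES cells at an adjusted p under 0.05 and at least 2-fold.

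**Figure D1:**
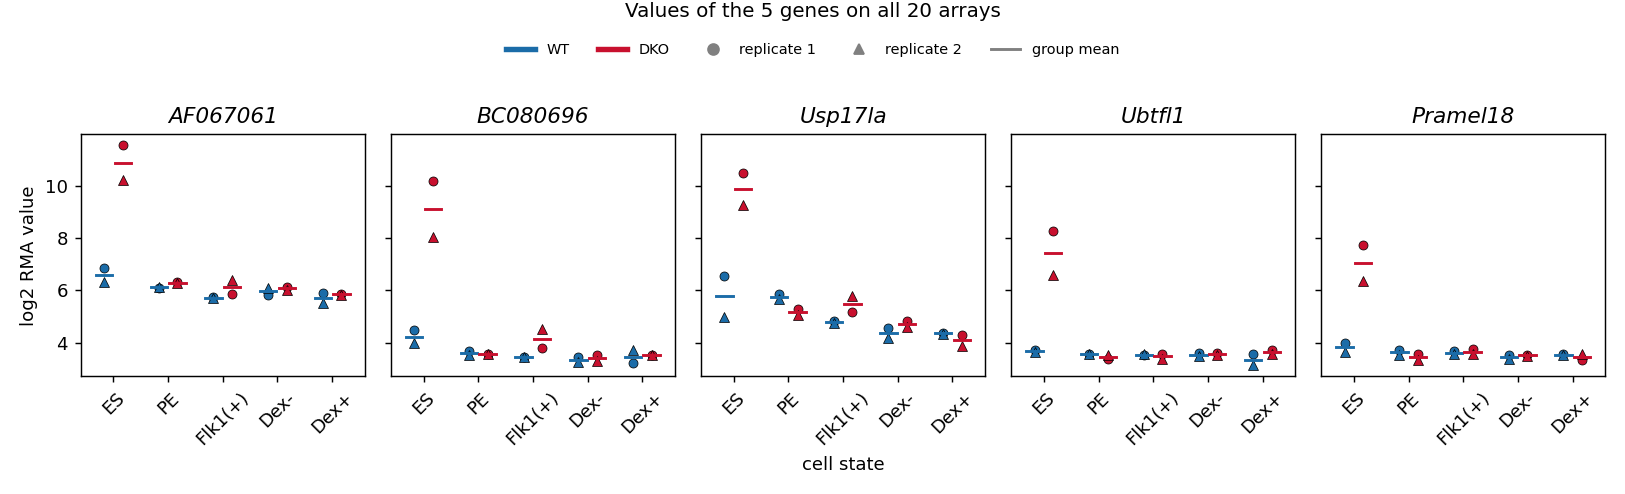
The log2 RMA value (y axis) of each gene on the 20 arrays by cell state (x axis), with WT in blue, DKO in red, circles for replicate 1, triangles for replicate 2 and bars for the mean of the 2 arrays. The DKO ES arrays stand above all 18 other arrays for each of the 5 genes, which were mostly chosen by ES values.

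The 2 DKO ES arrays were the highest of the 20 for each gene, and the lower of them exceeded the best of the other 18 by 3.54 for BC080696, 3.35 for AF067061, 2.84 for Ubtfl1, 2.71 for Usp17la and 2.37 for Pramel18 on the log2 scale. The genes were mostly chosen by ES values, so the height of the DKO ES arrays is a description and not a test. On the other 18 arrays Ubtfl1 ranged from 3.14 to 3.74, Pramel18 from 3.34 to 3.99 and BC080696 from 3.23 to 4.51. These 3 genes were in the lowest 25.5% of probe sets on every one of the 18 arrays. AF067061 ranged from 5.50 to 6.85 there, near the middle of each array, and Usp17la from 3.89 to 6.56. The deposited values carry no detection calls, so it is not known whether such levels are signal or background. WT ES cells had the second highest group mean for all 5 genes. Its arrays overlapped those of the next group for 4 of them, while for AF067061 they lay just above DKO PE.

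The 2 DKO ES arrays also differed from each other more for these genes than for almost any other. Replicate 1 exceeded replicate 2 by 2.13 for BC080696, 1.67 for Ubtfl1, 1.37 for Pramel18, 1.33 for AF067061 and 1.21 for Usp17la. These gaps ranked 1, 4, 12, 13 and 19 among the 18194 genes, of which 33 had a gap of at least 1 and whose gaps had an SD of 0.271. The gaps come from the arrays whose values chose the genes. That choice can favour a gene that is very high on a single array, so the ranks are a description and not a test. The gap was not a feature of all genes raised in DKO ES cells: the other 198 had a median gap of -0.15, and 9 of them reached 1. Among other genes with a gap over 1 were the cleavage-stage genes Arg2 with 2.04 and Tdpoz1 with 1.37, Gm20767 beside AF067061 with 1.25, and genes outside the group such as the haem oxygenase Hmox1 with 1.91 and the heat shock gene Hspa1a with 1.49. Both arrays were scanned on the same day. In WT ES cells replicate 1 was also the higher one, by 1.57 for Usp17la and by 0.09 to 0.52 for the other 4. In bulk RNA, more expressing cells and more RNA per cell cannot be told apart. Without DKO ES replicate 1 the differences from WT were smaller, at 3.81 for BC080696, 3.61 for AF067061, 3.50 for Usp17la, 2.89 for Ubtfl1 and 2.54 for Pramel18.

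**Figure D2:**
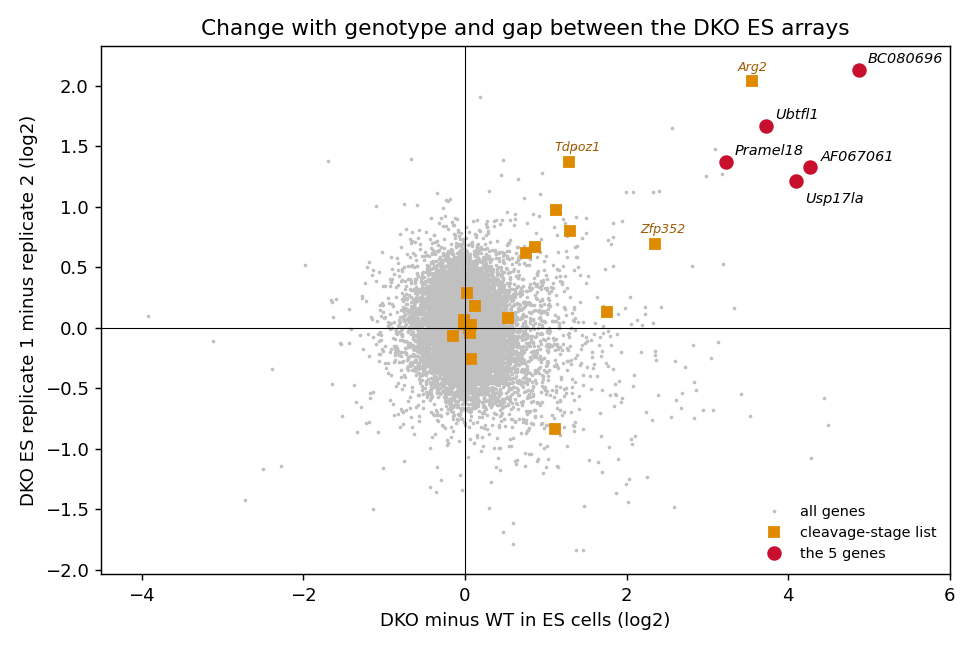
Each point is 1 of 18194 genes, with its DKO minus WT difference in ES cells on the x axis and the gap between DKO ES replicates 1 and 2 on the y axis, both in log2; red circles are the 5 genes and orange squares 19 other cleavage-stage genes. The 5 genes lie at the upper right, with gaps from 1.21 to 2.13, while most genes raised in DKO ES cells lie around or below a gap of 0.

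In DKO cells that had left the ES state the values were close to those of WT cells. From DKO ES to DKO PE the log2 change of the mean was -5.54 for BC080696, -4.71 for Usp17la, -4.58 for AF067061, -3.95 for Ubtfl1 and -3.60 for Pramel18. From DKO ES to DKO Flk1(+) cells the changes were -4.96, -4.39, -4.75, -3.92 and -3.39 in the same order. In WT cells the same steps moved the means by -0.98 to -0.01. The steps use the ES arrays and are given without a test. The ES arrays were scanned on a day of their own, so state and scan day cannot be told apart in these steps.

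In PE, AF067061 was at 6.08 and 6.15 in WT and at 6.30 and 6.27 in DKO, and BC080696 was at 3.69 and 3.54 in WT and at 3.57 and 3.58 in DKO. Ubtfl1 was at 3.58 and 3.58 in WT and at 3.40 and 3.54 in DKO, and Pramel18 was at 3.74 and 3.54 in WT and at 3.56 and 3.35 in DKO. The arrays of BC080696 and Pramel18 overlapped between genotypes, and those of AF067061 and Ubtfl1 lay within 0.3 of each other. Usp17la, at 5.85 and 5.68 in WT and at 5.28 and 5.05 in DKO, had the largest difference, with DKO the lower on both arrays. Group means of all 4 ES markers were higher in WT PE than in DKO PE, Pou5f1 at 9.39 against 7.02, Sox2 at 9.67 against 5.45, Nanog at 7.14 against 4.83 and Zfp42 at 11.2 against 10.3, and 3 of the 4 passed the test. The part of leftover ES cells in the Usp17la difference was not tested.

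With limma over all 18194 genes and Benjamini-Hochberg adjustment, 0 of the 5 genes differed between DKO and WT in PE, where 1.96% of all genes passed at an adjusted p under 0.05 and 2-fold. The same count was 0 of 5 in Flk1(+) cells, where 0.698% of genes passed, in Dex- cells, where 5.84% passed, and in Dex+ cells, where 9.65% passed. None of the 5 reached an unadjusted p under 0.05 in these 4 comparisons, and the lowest adjusted p was 0.534. Of all 18194 genes, 2392 in PE, 2375 in Flk1(+), 4366 in Dex- and 5128 in Dex+ cells had such an unadjusted p. In PE the log2 difference was 0.18 for AF067061 (95% interval -0.50 to 0.85), -0.04 for BC080696 (-1.004 to 0.93), -0.60 for Usp17la (-1.49 to 0.29), -0.11 for Ubtfl1 (-0.83 to 0.62) and -0.18 for Pramel18 (-0.81 to 0.44). Over the 4 states the 20 intervals lay between -1.49 and 1.64.

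The gap between the DKO ES arrays enters the spread of this fit. The residual SD of the 5 genes was 0.33 to 0.53 over all 20 arrays and 0.11 to 0.23 over the 16 arrays outside ES cells, while the median gene had 0.18 in both. A fit without the 4 ES arrays, chosen after seeing this, again passed 0 of the 5 in each comparison. Its unadjusted p was under 0.05 for 1 gene in PE, Usp17la at -0.60 (adjusted p = 0.208), and for 3 genes in Flk1(+) cells. How many of all genes had such a p in this fit was not counted.

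**Figure D3:**
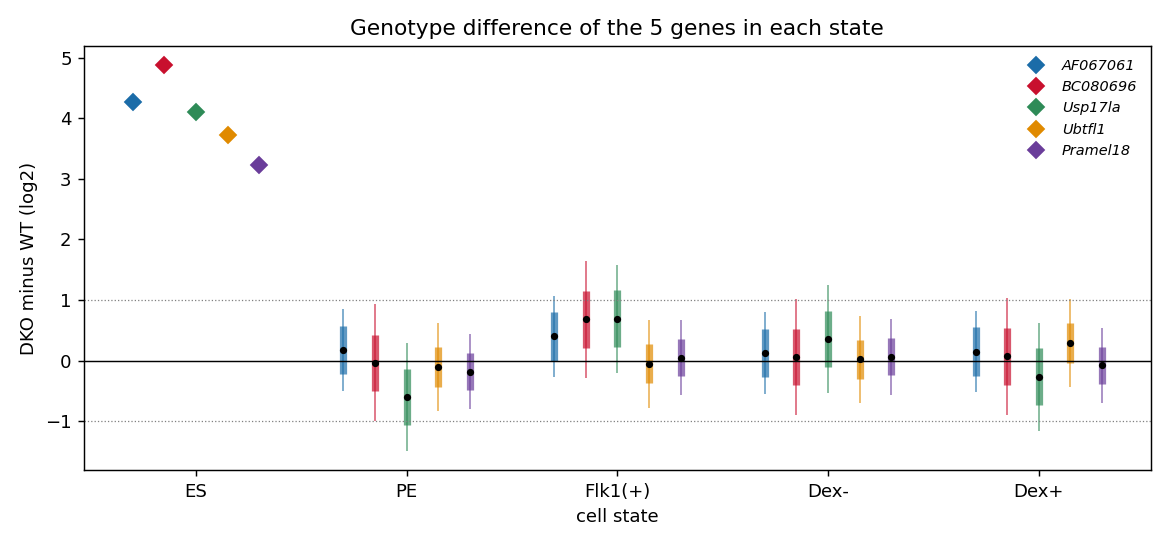
The DKO minus WT difference in log2 (y axis) of the 5 genes in each state (x axis); diamonds are the ES values that chose the genes, black points the differences elsewhere, thin bars the 95% intervals of the fit to all 20 arrays and thick bars those of the fit without the 4 ES arrays, with dotted lines at 2-fold. Outside ES cells all differences lie between -0.60 and 0.69.

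Those 3 genes in Flk1(+) mesoderm were Usp17la, BC080696 and AF067061. Usp17la was at 4.82 and 4.76 in WT Flk1(+) cells and at 5.17 and 5.80 in DKO, a difference of 0.69 (adjusted p = 0.187 in the limma fit without ES arrays). BC080696 was at 3.47 and 3.47 in WT and at 3.79 and 4.51 in DKO, a difference of 0.68 (adjusted p = 0.200). AF067061 was at 5.75 and 5.70 in WT and at 5.86 and 6.39 in DKO, a difference of 0.40. In all 3 genes DKO replicate 2, from the transgenic clone, was the higher of the DKO arrays. On its scan day, shared with WT replicate 2, the difference was 1.04 for Usp17la, 1.04 for BC080696 and 0.69 for AF067061, and on the day of the parental lines it was 0.35, 0.32 and 0.11. Of the 4 ES markers, 3 were higher on that DKO replicate 2 array than on DKO replicate 1, Nanog at 8.93 against 7.17, Pou5f1 at 9.01 against 8.52 and Zfp42 at 8.56 against 7.87, while Sox2 was at 7.60 against 7.76. In WT replicates 1 and 2 they were at 7.45 and 7.63 for Nanog, 8.42 and 8.82 for Pou5f1, 8.87 and 6.75 for Zfp42 and 9.11 and 6.22 for Sox2, so that WT replicate 1 had the highest Sox2 and Zfp42 of the 4 arrays. The part of leftover ES cells was not tested. Ubtfl1, at 3.59 and 3.40 in DKO and 3.53 and 3.56 in WT, and Pramel18, at 3.75 and 3.58 in DKO and 3.67 and 3.57 in WT, overlapped between genotypes.

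Culture of the sorted mesoderm and activation of Gata4GR moved none of the 5 genes past the threshold. From Flk1(+) to Dex- cells 0 of 5 passed in WT, where 15.3% of all genes did, and 0 of 5 in DKO, where 16.6% did. Usp17la in DKO moved by -0.76 and BC080696 by -0.74, with adjusted p = 0.202 or more in the limma fit to all arrays and adjusted p = 0.0167 and 0.0197 in the fit without ES arrays, in both cases under 2-fold. In Dex- cells Usp17la was at 4.56 and 4.18 in WT and at 4.84 and 4.62 in DKO, and BC080696 at 3.45 and 3.26 in WT and at 3.53 and 3.30 in DKO. AF067061 was at 5.82 and 6.10 in WT and at 6.14 and 6.03 in DKO Dex- cells. The genotype difference did not change between Flk1(+) and Dex- cells past the threshold for any of the 5, where 2.91% of all genes passed.

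Addition of Dex to the mesoderm passed the test for 0 of the 5 in WT, where 1.6% of genes passed, and for 0 of the 5 in DKO, where 9.63% passed. In the limma fit without ES arrays Usp17la moved by -0.64 with Dex in DKO (95% interval -1.10 to -0.17, adjusted p = 0.0604). The response differed between genotypes for 0 of the 5, against 5.86% of all genes. In DKO Dex+ cells AF067061 was at 5.88 and 5.83, BC080696 at 3.54 and 3.55, Usp17la at 4.29 and 3.89, Ubtfl1 at 3.72 and 3.57 and Pramel18 at 3.34 and 3.59. In WT Dex+ cells they were at 5.91 and 5.50, 3.23 and 3.72, 4.38 and 4.33, 3.57 and 3.14, and 3.56 and 3.53. These DKO cells had taken on primitive endoderm markers, with Sox17 at 12.7 against 9.17 in WT Dex+ cells. The 5 genes stayed close to or below their DKO PE levels. Over all 10 comparisons outside ES cells, 0 of 50 values passed and 0 had an unadjusted p under 0.05 in the limma fit to all arrays. These values share arrays and groups. The limma fit without ES arrays had a smaller spread for these genes, and again none passed. Its unadjusted p was under 0.05 for 1 gene in PE and 3 in Flk1(+) cells between genotypes. The same held for 2 genes from Flk1(+) to Dex- cells in DKO and for 1 with Dex in DKO. How many of all genes had such a p in this fit was not counted. In the limma fit to all arrays, 2392 of the 18194 genes had it in PE and 2375 in Flk1(+) cells between genotypes. There it was 7240 from Flk1(+) to Dex- cells in DKO and 5170 with Dex in DKO.

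The measured rest of the cleavage-stage programme moved in ES cells only in part, and most listed genes were not measured. A list of 44 other cleavage-stage genes had 19 measured members, of which 7 were higher in DKO ES cells, 0 were lower and 12 did not pass, against 1.12% of all genes called higher. Their median log2 difference was 0.53, beside -0.0047 for all genes. Of the 19, 10 had an unadjusted p under 0.05 in limma, against 2122 of all 18194 genes. Some that did not pass lay near the bottom of the array, where a difference can be missed. Rfpl4 was at 3.60 and 3.48 in WT ES cells and at 3.59 and 3.59 in DKO ES cells. These values come from the contrast that chose the 5 genes and are a description. Higher were Arg2, a mitochondrial arginase, by 3.55, the zinc finger gene Zfp352 by 2.35, Sp110 by 1.76, Tcstv3 by 1.30, Tdpoz1 by 1.29, AF067063 by 1.12 and the homeobox gene Obox6 by 1.12. In the limma fit to all arrays, 0 of the 19 passed between genotypes in PE, Flk1(+), Dex- and Dex+ cells. In this fit 0 had an unadjusted p under 0.05, against 2375 to 5128 of all 18194 genes. The gap between the DKO ES arrays widens the spread of this fit for genes that have it. Among the 19 the median gap was 0.13, and 2 reached 1, Arg2 with 2.04 and Tdpoz1 with 1.37. For the 5 genes, the fit without ES arrays had such a p for 1 in PE and 3 in Flk1(+) cells. That fit is not given for the 19, so smaller differences among them can be missed.

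**Figure D4:**
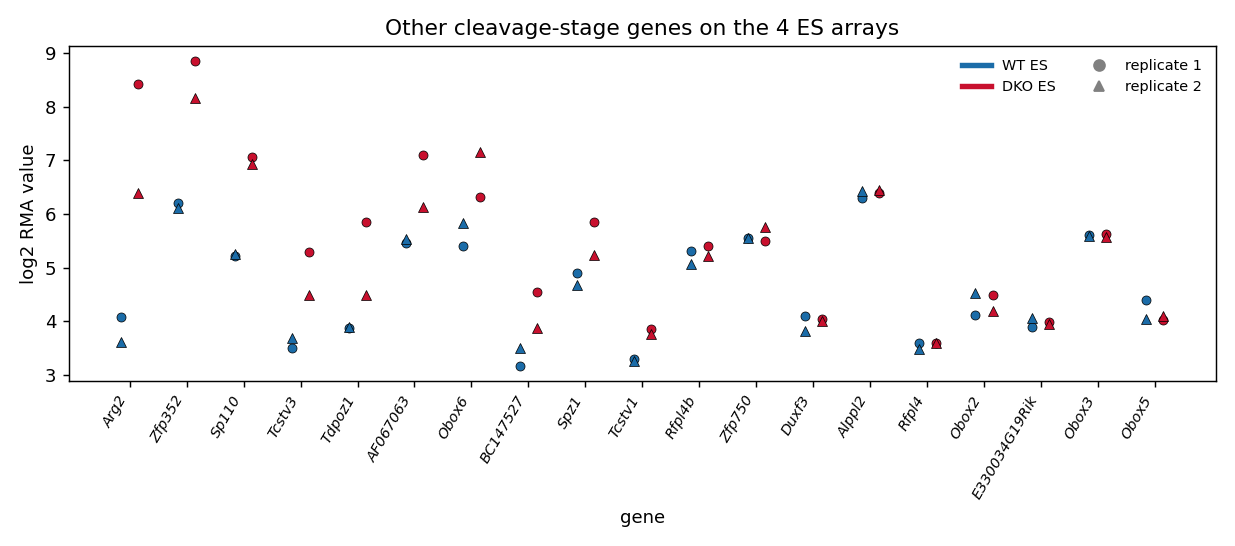
The log2 RMA values (y axis) of 19 other cleavage-stage genes on the 4 ES arrays, ordered along the x axis by their DKO minus WT difference, with WT in blue, DKO in red, circles for replicate 1 and triangles for replicate 2. Arg2 and Zfp352 at the left show the largest differences, 3.55 and 2.35, and the genes at the right do not separate by genotype.

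Like the 5 genes, Arg2 was at 4.09 and 3.61 in WT ES cells and at 8.42 and 6.38 in DKO ES cells, with replicate 1 the higher. Zfp352 was at 6.20 and 6.11 in WT and at 8.85 and 8.16 in DKO. Sp110, at 5.22 and 5.26 in WT and at 7.06 and 6.93 in DKO, showed no such gap, and Obox6 had replicate 2 the higher in DKO, at 6.32 and 7.16. The double homeobox gene Duxf3, an activator of the programme on the same list, did not pass. It was at 4.10 and 3.81 in WT ES cells and at 4.04 and 4.01 in DKO, and lay between 3.73 and 4.27 on all 20 arrays, below the first quartile of each, which was 4.47 or more.

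Genes known to switch the programme on or hold it off were on a list of their own. Of 21 measured regulators 0 passed in either direction in ES cells, where 203 of the 18194 genes were called higher and 49 lower. Their median difference was 0.0022, and 2 had an unadjusted p under 0.05 in limma, against 2122 of all genes. Dppa2 was at 12.22 and 12.12 in WT and at 12.31 and 12.11 in DKO, and Dppa4 at 12.22 and 12.11 in WT and at 12.11 and 11.75 in DKO. In cultured mesoderm, by contrast, Dppa2 was higher in DKO by 4.75 in Dex- and 3.73 in Dex+ cells. Dppa4 was higher by 3.20 and 2.52, and all these differences passed the test. In these cells the 5 genes were far below their DKO ES levels, and a link to Dppa2 or Dppa4 was not tested. Of the 21 regulators, 2 passed higher and 1 lower in Dex- cells, where 5.84% of all genes passed (638 higher and 425 lower), and 5 passed higher in Dex+ cells, where 9.65% passed (876 higher and 879 lower).

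Among the 11 other PRAME-like genes, 2 were higher in DKO ES cells, Pramel7 by 2.72 and Pramel6 by 2.22. Of all genes, 1.12% were called higher there. Pramel7 was at 5.18 and 4.83 in WT and at 7.56 and 7.89 in DKO, and Pramel6 at 4.22 and 3.98 in WT and at 6.38 and 6.27 in DKO. Neither had replicate 1 ahead by over 1 as Pramel18 did. Pramel13 passed in Dex- cells, higher in DKO by 1.74, where 5.84% of all genes passed. No other gene of the USP17-like family was measured. Of 21 oocyte and maternal genes, Nlrp14 was higher in DKO ES cells by 1.69 and Ooep lower by 1.19, and the other 19 did not pass. Over all 18194 genes, 203 were called higher and 49 lower there. Gdf9 was higher in DKO by 2.10 in Dex+ cells, where 9.65% of all genes passed. Nlrp14 was higher by 1.28 in Dex- cells, where 5.84% passed, and both genes passed the test.

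Around AF067061, within 300 kb on either side, 3 of 23 annotated genes were measured and 2 were higher in DKO ES cells, Gm20767 by 2.98 and Tcstv3 by 1.30, while BC147527 differed by 0.87, under the 2-fold threshold. The windows of the other genes held 14 measured neighbours, of which 1 was higher, Naalad2 near Ubtfl1 by 1.81. Of all genes, 1.12% were called higher in DKO ES cells. None of the 9 genes around BC080696 was measured.

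Over the 20 arrays the 5 genes followed each other, with Pearson's r between 0.920 and 0.989 for the 10 pairs. This rests on the DKO ES arrays, and the genes were mostly chosen by ES values. The r over 20 arrays, here and in the lists below, follows largely from that choice and is a description. Over the other 18 arrays r was between 0.04 and 0.73. All genes were read on the same arrays, so no p is given. The genes most like AF067061 were Gm20767, BC080696 and Pramel18 (r of 0.987, 0.984 and 0.980), and those most like BC080696 were Pramel18, AF067061 and Arg2 (0.988, 0.984 and 0.982). Those most like Usp17la were AF067061, BC080696 and Pramel6 (0.958, 0.954 and 0.952). For Ubtfl1 they were Pramel18, Stox1 and Fgf1 (0.989, 0.983 and 0.981), and for Pramel18 they were Ubtfl1, BC080696 and Gm20767 (0.989, 0.988 and 0.982).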

How the data were processed

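Total RNA of each sample was labelled in a 2-cycle protocol and hybridised to Affymetrix MOE430v2 arrays. The authors deposited log2 values after RMA, which corrects background, applies quantile normalization and summarises probes, with no version given in the sources used here, and whether RMA was run on the 20 arrays jointly is not given either. The scan files were used only for the scan day.

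Of 45101 probe sets, 34958 had 1 gene symbol in the platform annotation, 932 had several and 9211 had none. A gene took its probe set of highest mean, giving 18194 genes. Group means were fitted to all 20 arrays with limma 3.58.1 in R 4.3.3 (lmFit, eBayes), and p-values were adjusted by the Benjamini-Hochberg method over all genes. Limma stood in for the SAM method of the study. A gene passed at an adjusted p under 0.05 and at least 2-fold. Fits were tested on simulated data. The number of arrays limits the precision.

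The members and lists were chosen with earlier results of these data known. Named genes were the members, the 3 genes most correlated with each, those passing or leading in each list, and genes between the members in rank or gap, the last chosen after their values were seen. Alternatives covered probe set choice, scaling, a filter on low values, the variance model, the arrays in the fit, scan day, the replicate block and single arrays.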

Additional observations from a re-analysis of the deposited data

How the results depend on the processing

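Outside ES cells 0 of the 5 genes passed in any of the 152 recalculated counts. The ES differences kept their direction, but they chose the genes, so this is no check on them. With a replicate block 0 of 5 passed in every comparison. Replicate numbers are shared between genotypes, and deviations of same-numbered arrays correlated at 0.190 in ES, 0.360 in PE, 0.311 in Flk1(+), 0.175 in Dex- and 0.282 in Dex+ cells, with 2 pairs each. Same-numbered WT and DKO arrays shared a scan day that differed between the numbers in PE, Flk1(+) and Dex- cells. All ES arrays shared a day on which no other array was scanned. All Dex+ arrays shared another day. The labels do not say that a number marks a shared culture. Under the block the number of all genes passing rose from 127 to 211 for the genotype in Flk1(+) cells and from 529 to 809 for the genotype difference in Dex- minus that in Flk1(+) cells.

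For the genotype in Flk1(+) cells it was 0 with the compared groups alone, 551 without the parental lines, and 349 to 394 without WT replicate 1, WT replicate 2 or DKO replicate 1. In PE it was 356, and 235 without WT replicate 2 or 223 without DKO replicate 2. For Dex in WT it was 291, 156 with the compared groups alone and 161 without WT Dex+ replicate 2; for the genotype difference in Dex- minus that in Flk1(+) cells it was 129 with the compared groups alone. The causes were not tested. Fitted to the compared groups alone, Usp17la reached an adjusted p of 0.0371 for the genotype in PE and 0.0414 for Dex in DKO cells, under 2-fold in both. Leaving out the 40% of genes with the lowest mean removed 4 of the 5 genes before testing, and leaving out probe sets that can bind other transcripts removed AF067061.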
